A study of Mus musculus with 21 samples.

Results

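Interferon-stimulated genes are the genes that cells switch on when interferon binds its receptors. Of 38 listed genes of this class, 37 were found by symbol in a table of 14265 genes, and Mx1, which codes for an antiviral GTPase, was not analysed here. They were followed through 21 RNA-seq libraries of sorted spleen cells from C57BL/6 mice, 3 libraries in each of 7 groups. Ter119+CD71+ cells, which carry 2 surface antigens of red cell precursors, had been sorted as CD45+ and as CD45- cells from neonatal mice, from mice with anemia and from mice bearing a tumor, giving 6 groups. The remaining group was CD11b+Gr1+ myeloid-derived suppressor cells (MDSC) from tumor-bearing mice. The labels do not say which tumor was used, how anemia arose, how old the mice were, or whether the libraries of a group came from separate animals, so p-values reflect only how far these libraries vary, and that variation may be technical.

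Type I interferons signal through the receptor subunits Ifnar1 and Ifnar2 and the kinases Jak1 and Tyk2 to a complex that holds Stat2 and Irf9 and binds the interferon-stimulated response element (ISRE) in promoters. Interferon gamma signals through Ifngr1 and Ifngr2 and acts on promoters that hold the gamma-activated site (GAS). The products sense foreign nucleic acids, degrade or edit RNA, attach the ubiquitin-like protein Isg15 to other proteins, or hinder virus replication and release. Many of these genes also have a basal level in cells that are not infected.

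The ISRE-type motif searched for was GAAANNGAAA, on both strands, in windows from 250 bases before to 50 bases after each start site in RefSeq promoters (GRCm38.p6, a later build than the mm8 of the deposited values). It was found for 15 of the 30 members that matched this promoter table by symbol, or 50.0%, against 3.99% of all 27025 genes in it. The GAS-type motif TTCNNNGAA was found for 8 of these 30 members, or 26.7%, against 9.55% of all genes, and the 2 motifs can overlap each other. The stretches below are from 6 members, chosen after their values were seen from those that held the motif and passed the test between CD45+ and CD45- cells, to show the letters in members of either direction. Rsad2 and Oas3 were lower in CD45+ cells of tumor-bearing, anemia and neonatal mice, Isg15 was lower in anemia only, and Bst2, Gbp2 and Trim30a were higher in all 3. Letters run 5′ to 3′ on the strand of the gene, and capitals mark the motif, which reads as TTTCNNTTTC where it lies on the other strand.
Isg15, chr4:156200867-156200916, minus strand: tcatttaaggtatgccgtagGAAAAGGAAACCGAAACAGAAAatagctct
Rsad2, chr12:26456543-26456592, minus strand: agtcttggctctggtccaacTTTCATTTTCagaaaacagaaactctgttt
Oas3, chr5:120777705-120777754, minus strand: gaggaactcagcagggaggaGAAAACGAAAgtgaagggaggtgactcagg
Bst2, chr8:71537573-71537622, minus strand: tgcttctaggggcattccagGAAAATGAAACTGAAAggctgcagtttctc
Gbp2, chr3:142620584-142620633, plus strand: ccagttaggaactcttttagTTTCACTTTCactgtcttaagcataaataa
Trim30a, chr7:104465200-104465249, minus strand: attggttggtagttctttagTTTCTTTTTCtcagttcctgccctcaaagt
None of the 3 promoters listed for Isg20 and neither the promoter of Cmpk2 nor that of Irf7 held these letters, which says only that they are not in these windows. A match is a description and not evidence of binding.

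Levels below are 2 to the power of the deposited log2 values. No source used here names their scale, so levels are compared between libraries and not between genes. Their sum over all genes ran from 227942 to 349254 per library, read depth is unknown, and a gene is listed at 0 where its cell was blank. The sort was visible in the data. Ptprc, which codes for CD45, ran from 86.7 to 477 in the 9 CD45+ libraries and from 1.23 to 5.50 in the 9 CD45- libraries. Summed levels of 7 erythroid markers were 187 to 1429 in CD45+ libraries, 3162 to 6626 in CD45- libraries and 51.5 to 106 in MDSC. Markers of white blood cells were high in the CD45+ libraries, although these were sorted for red cell antigens. The sum of 9 neutrophil markers was 459 to 29034 in CD45+ libraries against 8.78 to 370.1 in CD45- libraries, and that of 7 B cell markers was 97.4 to 902 against 1.44 to 11.

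Several libraries stood apart from the others of their group in interferon-stimulated genes. In the tumor CD45+ group the library numbered 3 had the highest level for 34 of 37 members, while it was the highest for 46.6% of all genes. The library numbered 3 was also the highest for 33 members in tumor CD45- cells (62.4% of all genes) and for 31 in MDSC (28.1% of all genes). Summed levels of all members were 214, 269.8 and 559 in tumor CD45+ cells, 385, 386 and 899.9 in tumor CD45- cells and 214, 265 and 443 in MDSC. In anemia CD45- cells the library numbered 2 was the highest for 32 members (25.5% of all genes). The library numbered 3 was the lowest for 33 members (27.1% of all genes). The member sums there were 1099, 1426 and 583. The plot of deviations shows these libraries shifted as a whole.

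**Figure D1:**
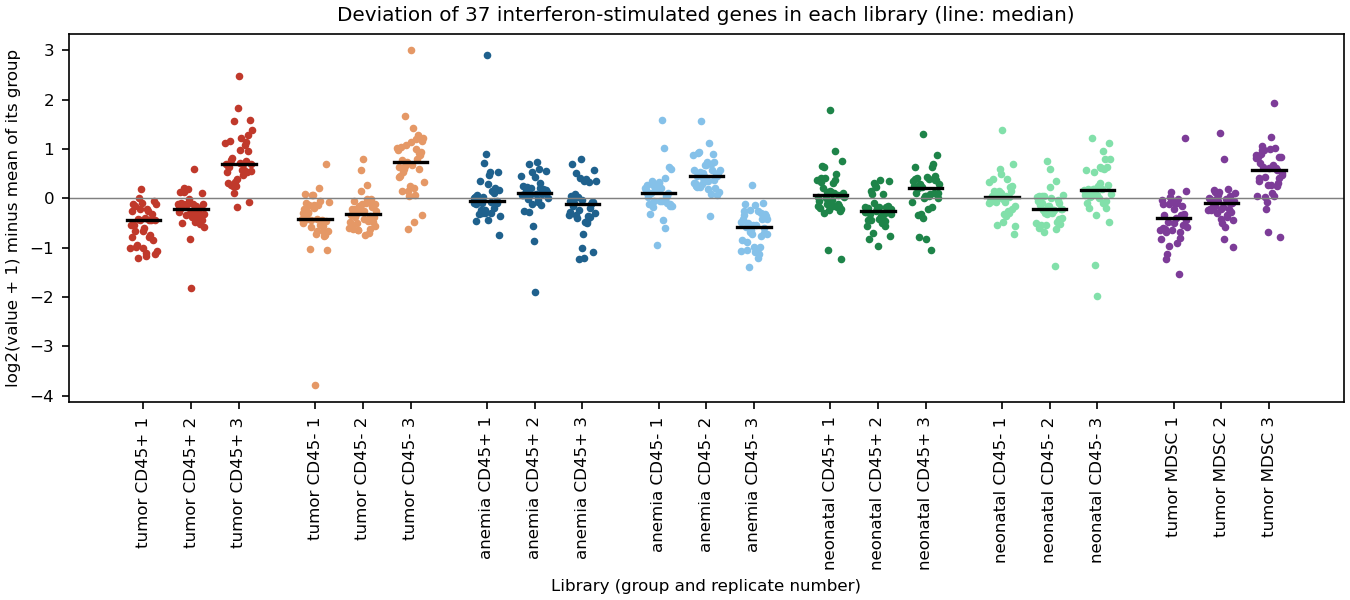
Deviation of each of 37 interferon-stimulated genes (points) from the mean of its group on the log2(value + 1) scale, for 21 libraries in 7 groups, with the median as a line. The tumor libraries numbered 3 have medians of 0.70 (CD45+), 0.74 (CD45-) and 0.57 (MDSC), and anemia CD45- library 3 has a median of -0.59.

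Other markers moved with the library numbered 3. In tumor CD45+ cells the B cell sum was 126, 162 and 529, the sum of 9 monocyte and macrophage markers was 177, 253 and 577, and the neutrophil sum was 27884, 29034 and 10995. In tumor CD45- cells the neutrophil sum was 370.1, 304 and 31.9 and the B cell sum 1.92, 1.44 and 2.91. The monocyte and macrophage sum there was 17, 20.2 and 33.5. The sum of 8 dendritic cell markers was 4.44, 9.53 and 17.5, and that of 10 T and NK cell markers 4.27, 5.69 and 3.11. In MDSC the monocyte and macrophage sum was 284, 331 and 623. Their part in the member levels was not tested. Results that rest on tumor libraries are given with and without the libraries numbered 3, a setting chosen after these levels were seen.

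Between CD45+ and CD45- cells the members went both ways. The sensors Ddx58 and Zbp1, the TRIM protein Trim30a, the virus tether Bst2 and the GTPase Gbp2 were higher in CD45+ cells of all 3 statuses. The exonuclease Isg20, the radical enzyme Rsad2 and the oligoadenylate synthetase Oas3 were higher in CD45- cells of all 3. A further 13 members passed the test in 1 or 2 statuses. The other 16, or 43.2%, passed in none, against 23.8% of all genes. No member passed in opposite directions, but only 0.214% of all genes did, so this says nothing particular about the members. The 3 contrasts share no library, but they come from the same fit with a shared estimate of spread.

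Isg20 removes nucleotides from single-stranded RNA. Its levels in tumor-bearing mice were 219, 180.1 and 233 in CD45- cells and 18.7, 29.4 and 30.8 in CD45+ cells. In anemia they were 193, 214 and 103 against 53.6, 47.3 and 13.1, and in neonates 129, 93.5 and 134 against 17.7, 19.7 and 12. Every CD45- library was thus above every CD45+ library. The difference of CD45+ minus CD45- means on the log2(value + 1) scale, with its standard error (n = 3 libraries a group), was -2.98 ± 0.42, adjusted p = 1.2e-05 in tumor-bearing mice. It was -2.28 ± 0.42 in anemia (adjusted p = 1.9e-04) and -2.79 ± 0.42 in neonates (adjusted p = 2.7e-05), all by limma with Benjamini-Hochberg adjustment over 11192 genes. Within the CD45+ anemia group Isg20 was lowest in library 3, where the erythroid sum was also lowest (1429, 1038 and 187). Whether the erythroid share of the cells sets the level was not tested, and in bulk RNA more cells of a type and more RNA per cell cannot be told apart.

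Rsad2, or viperin, makes a chain-terminating nucleotide from CTP, and its neighbour Cmpk2 on chromosome 12 codes for a kinase of nucleoside monophosphates. Rsad2 levels were 30.7, 29 and 135 in tumor CD45- cells and 3.49, 7.92 and 21.7 in tumor CD45+ cells. They were 174, 192 and 103 against 46.9, 56.8 and 13.8 in anemia and 58.4, 59.2 and 114 against 13.9, 20.5 and 13.3 in neonates. The CD45- libraries were the higher ones without overlap, and the difference was -2.38 ± 0.63, adjusted p = 0.0035 in tumor-bearing mice. It was -2.14 in anemia (adjusted p = 0.0076, and 0.055 without CD45+ library 3) and -2.17 in neonates (adjusted p = 0.0069). Cmpk2 fell by 1.95 in anemia CD45+ cells (6.57, 4.06 and 2.72 against 18.5, 43.1 and 8.62) and by 1.69 in neonatal CD45+ cells (3.99, 2.12 and 3.16 against 11.4, 10.1 and 15), with adjusted p = 0.0026 and 0.0071. In tumor-bearing mice its levels were 2.09, 9.41 and 9.36 against 7.86, 8.09 and 10.2 and the difference of -0.48 ± 0.49 did not pass.

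The oligoadenylate synthetases make short 2′-5′ adenylate chains when they meet double-stranded RNA. Oas3 and Oas2 are neighbours on chromosome 5 and differed in direction. Oas3 levels were 1.97, 5.24 and 8.99 in tumor CD45+ cells against 12.2, 11.9 and 23 in CD45- cells, 18.9, 14.6 and 11.5 against 48.3, 54.6 and 19.8 in anemia, and 9.85, 6.70 and 3.08 against 22.6, 17.6 and 22.8 in neonates. These sets of libraries did not overlap, and the differences were -1.49 ± 0.46, -1.29 ± 0.46 and -1.65 ± 0.46 (adjusted p = 0.0096, 0.022 and 0.0051). The tumor call was lost without CD45+ library 1, and the anemia call without CD45+ library 3 or CD45- library 1 or 2. Oas2 was higher in CD45+ cells of neonates, at 8.04, 4.76 and 8.05 against 0.717, 0.502 and 0.635 (2.27 ± 0.45, adjusted p = 3.8e-04). It was also higher in tumor-bearing mice, at 0.807, 3.12 and 5.05 against 0.198, 0.272 and 1.13 (1.27 ± 0.45, adjusted p = 0.022), overlapping groups in which the call was lost without any one of 4 tumor libraries and without the tumor libraries numbered 3 (adjusted p = 0.065). In anemia Oas2 was at 5.07, 7.87 and 7.01 against 4.28, 8.44 and 1.40, groups that overlapped, and its difference of 0.62 ± 0.45 did not pass. Oas1a rose by 1.66 in tumor and by 1.87 in neonatal CD45+ cells, calls lost after quantile normalization (adjusted p = 0.31 and 0.11). Its whole transcript shares near-identical sequence with Oas1g, so its reads may be split between the 2 genes.

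Oasl1 and Oasl2 resemble the synthetases and lack, in the case of Oasl1, their enzyme activity. Oasl1 rose in neonatal CD45+ cells, at 6.22, 8.39 and 9.39 against 2.75, 3.09 and 3.08 (1.16 ± 0.32, adjusted p = 0.0051). Oasl2 ranged from 0.388 to 72.9 over the Ter119+CD71+ libraries and passed in no contrast. Eif2ak2, the kinase PKR that stops translation on double-stranded RNA, fell by 0.93 in anemia CD45+ cells (15.5, 17.5 and 17 against 31.3, 40.4 and 27.4, adjusted p = 0.028), a call lost without any one of 5 anemia libraries. Adar, which edits adenosine in double-stranded RNA, passed in none, with differences between -0.16 and 0.26.

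**Figure D2:**
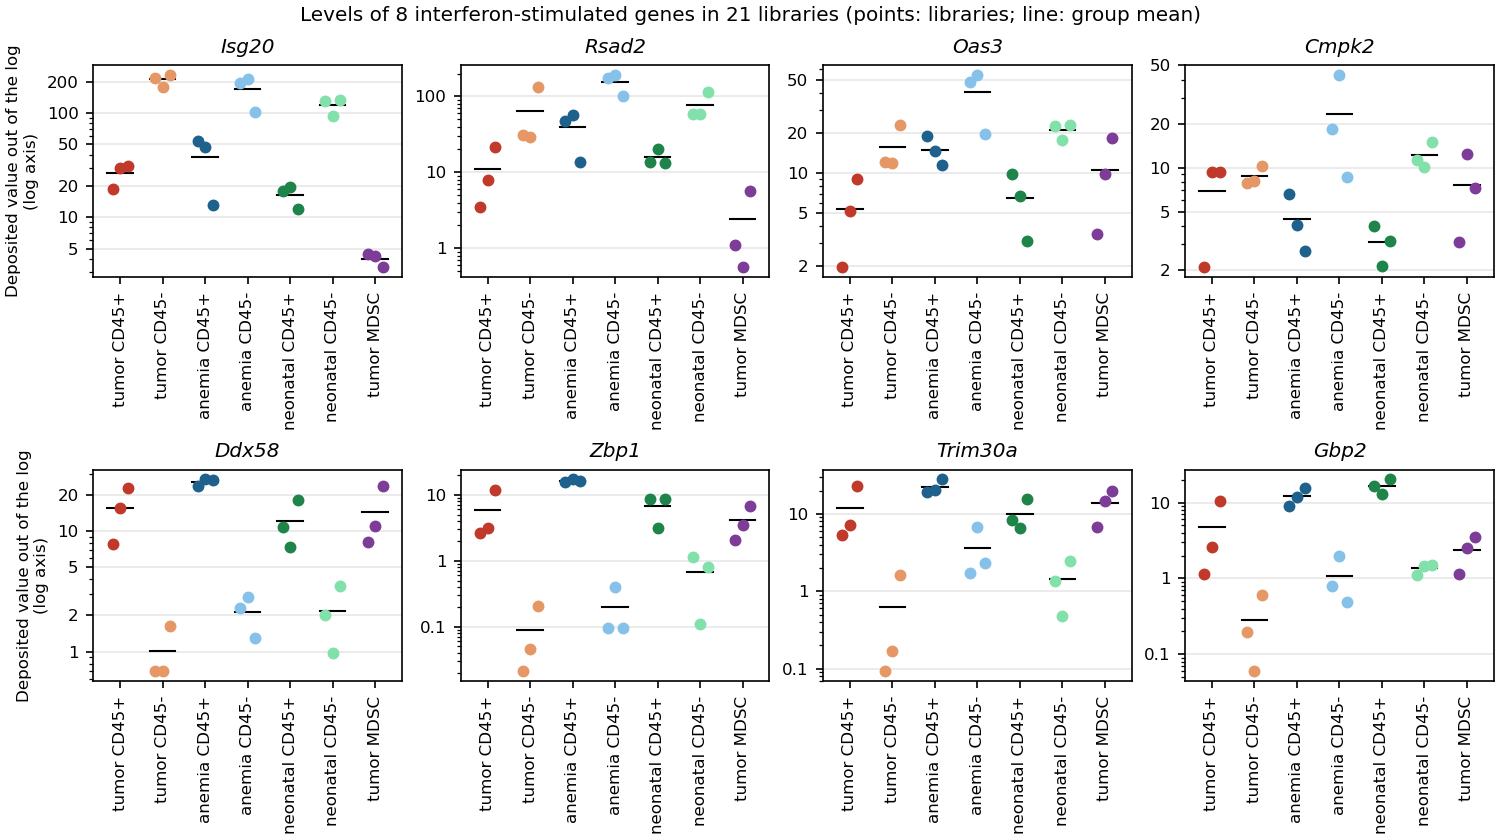
Levels of 8 members in 21 libraries (points) with the mean of each group of 3 (line), on log axes. Isg20, Rsad2 and Oas3 are higher in each CD45- group than in the CD45+ group of the same mice, and Ddx58, Zbp1, Trim30a and Gbp2 are lower.

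Ddx58 codes for RIG-I, which senses viral RNA in the cytosol. In tumor-bearing mice its levels were 7.78, 15.6 and 22.9 in CD45+ cells and 0.699, 0.688 and 1.64 in CD45- cells. Anemia gave 23.6, 27 and 26.3 against 2.31, 2.85 and 1.30 and neonates 10.9, 7.39 and 18.1 against 2.03, 0.987 and 3.50. The CD45+ libraries were all above the CD45- libraries, by 2.95 ± 0.39, adjusted p = 5.5e-06 in tumor, 3.11 ± 0.39 in anemia (adjusted p = 3.2e-06) and 2.04 ± 0.39 in neonatal mice (adjusted p = 2.5e-04). Zbp1 senses Z-form nucleic acids. Its anemia levels were 15.8, 17.4 and 16.1 in CD45+ cells and 0.0941, 0.398 and 0.0959 in CD45- cells, the largest positive difference of any member in anemia (3.87 ± 0.41, adjusted p = 5.4e-07). The tumor levels of Zbp1 were 2.67, 3.09 and 12 against 0.0208, 0.0449 and 0.202 and the neonatal levels 8.72, 3.14 and 8.79 against 1.13, 0.111 and 0.801, differences of 2.41 and 2.18 that both passed.

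The other 2 RNA sensors of this family went along less. Dhx58, or LGP2, rose in neonatal CD45+ cells (12.6, 6.92 and 10.5 against 3.96, 3.68 and 4.83, 1.07 ± 0.39, adjusted p = 0.026) and did not pass in the other statuses. Its neonatal call was lost in 6 alternatives, among them quantile normalization and leaving out single neonatal libraries. Ifih1, or MDA5, was at 8.61, 10.1 and 20.5 in anemia CD45+ and 15.4, 17.9 and 12.3 in anemia CD45- cells, overlapping groups, and its differences of -0.12, -0.29 and -0.13 did not pass.

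Trim30a, a TRIM protein that restrains Toll-like receptor signalling, stood at 5.40, 7.26 and 22.8 in tumor CD45+ cells and 0.0919, 0.167 and 1.599 in tumor CD45- cells. The gap was 2.86 ± 0.51, adjusted p = 1.3e-04, with 2.49 in anemia and 2.20 in neonates, and both passed. Gbp2, a guanylate-binding protein that attacks vacuoles of pathogens, was at 16.6, 13 and 20.4 in neonatal CD45+ and 1.12, 1.44 and 1.499 in CD45- cells (2.89 ± 0.44, adjusted p = 3.3e-05). It differed by 1.83 in tumor-bearing mice and by 2.71 in anemia. Bst2, or tetherin, holds budding virus particles at the cell surface. Its levels were 18.4, 13.8 and 25.8 against 4.61, 4.66 and 4.64 in neonates and 8.24, 12.3 and 14.9 against 2.70, 3.37 and 2.46 in anemia, with differences of 1.81 and 1.71. In tumor-bearing mice the groups of Bst2 overlapped, at 2.40, 2.60 and 6.29 against 0.639, 0.828 and 2.53. That difference of 1.03 ± 0.34 (adjusted p = 0.016) was lost without any one of 3 tumor libraries and turned to -0.25 after quantile normalization. Sp100, a protein of nuclear bodies, rose in tumor (1.59) and neonatal CD45+ cells (1.36) and was at 179.7, 178 and 146 against 78.2, 127 and 44.2 in anemia, where 1.13 ± 0.52 did not pass. Its tumor call was lost with median-ratio scaling (adjusted p = 0.3) and without any one of 3 tumor libraries, and its neonatal call without any one of 4 neonatal libraries.

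Isg15 is a ubiquitin-like protein, and Usp18 removes it from its targets and blocks the receptor. Isg15 had the largest standard error of the 37 members, and its levels were 0.283, 29.6 and 140.1 in tumor CD45- cells and 2.36, 0.514 and 28.4 in tumor CD45+ cells. It was lower in anemia CD45+ cells, at 55.2, 1.02 and 2.76 against 193, 249 and 78.4, without overlap (-4.38 ± 1.74, adjusted p = 0.044). The call was lost with the replicate number as a block (adjusted p = 0.061) and in 10 other alternatives. Usp18 fell by 1.48 in neonatal CD45+ cells, at 2.52, 1.82 and 2.33 against 5.42, 9.50 and 9.56 (adjusted p = 0.024), and passed in no other status. The Usp18 call was lost in 3 alternatives, each with a neonatal library left out. The enzymes that carry Isg15 to proteins, listed as pathway genes, fell in all 3 contrasts. Uba7, the activating enzyme, was at 11.7, 22.1 and 24.7 against 64.5, 76.5 and 90.8 in tumor-bearing mice (-1.98 ± 0.37, adjusted p = 1.9e-04). Ube2l6, the conjugating enzyme, was at 61.5, 78.2 and 88.1 against 469.6, 344 and 394 (-2.39 ± 0.53, adjusted p = 9.3e-04), and every CD45- library of every status was above the CD45+ libraries of that status for both. In anemia and neonates Uba7 fell by 1.45 and 2.15, and Ube2l6 by 2.31 and 2.77.

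Of the signalling factors, Stat2 was higher in CD45+ cells of tumor-bearing mice (0.93 ± 0.35, adjusted p = 0.032) and neonates (0.86 ± 0.35, adjusted p = 0.045), and after quantile normalization the tumor difference turned to -0.10. The neonatal Stat2 call was lost in 11 alternatives. Among them were no filter, the replicate number as a block (adjusted p = 0.053) and leaving out single neonatal libraries. The tumor Stat2 call was lost in 5. Irf9 fell by 0.91 in tumor CD45+ cells, at 6.75, 9.13 and 17.3 against 14, 14.3 and 40.7, overlapping groups (adjusted p = 0.041, lost without any one of 3 tumor libraries). Irf7, the master factor of interferon production, did not pass, with differences of -0.62, -0.58 and 0.46. Ifi35 fell by 0.88 in tumor and 0.77 in neonatal CD45+ cells, calls lost without any one of 3 tumor libraries and without any one of 5 neonatal libraries or tumor CD45- library 2. Dtx3l, a ubiquitin ligase that works with Parp9, rose by 1.08 in anemia CD45+ cells (adjusted p = 0.021), while Parp9 and Parp14, its neighbours on chromosome 16, passed in no status.

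Ifit1, Ifit2 and Ifit3, which bind the ends of foreign RNA, were near the bottom of the scale and passed in no contrast. Ifit1 ran from 0 to 4.14 over all libraries, Ifit2 from 0.0549 to 4.03, and Ifit3 from 0.00267 to 8.13, and 84.99% of the Ifit3 transcript shares near-identical sequence with Ifit3b. The GTPases Ifi47, Irgm1 and Igtp and the effectors Ifi44, Rtp4, Samd9l, Xaf1 and Oasl2 also passed in no CD45 contrast. Their differences lay between -0.89 (Irgm1, tumor) and 1.42 (Ifi47, tumor).

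Counted over all members, 9 of 37 were higher and 5 lower in tumor CD45+ than CD45- cells (24.3% and 13.5%). Over all 11192 genes tested, 50.2% were higher and 10.9% lower. In anemia 6 members were higher and 6 lower, against 47.4% and 11.3% of all genes. In neonates 11 were higher and 6 lower, against 49.6% and 10.3%. Median differences of the members were 0.23, -0.00 and 0.50, where the median gene moved by 0.75, 0.68 and 0.75. Members higher in all 3 statuses made up 13.5% of the list against 36.3% of all genes, and those lower in all 3 made up 8.11% against 6.90%. Since most genes read higher in CD45+ cells on the deposited scale, the split depends on scaling. With median-ratio scaling, which brings the median gene to 0.09, 0.06 and 0.09, it was 5 higher and 13 lower in tumor (all genes 32.7% and 25.4%), 5 and 13 in anemia (all genes 30.3% and 25%), and 7 and 10 in neonates (all genes 30.5% and 24%). With quantile normalization it was 4 and 13 in tumor (all genes 23.4% and 27.3%), 5 and 11 in anemia (all genes 23.6% and 26.7%), and 5 and 9 in neonates (all genes 23.8% and 25.1%). Without the tumor libraries numbered 3 it was 11 and 5 in tumor-bearing mice (all genes 48.1% and 8.79%). Ddx58 and Zbp1 remained higher and Isg20, Oas3, Rsad2 remained lower in all 3 statuses under both, and Usp18 and Cmpk2 joined the lower ones. Ifi35, Ifih1, Irf9 and Parp9 joined them with median-ratio scaling alone, making 9 lower in all 3 statuses, although Ifih1 and Parp9 passed in none on the deposited scale. Meanwhile Bst2 left the higher ones under both scalings and Gbp2 and Trim30a under quantile normalization. The higher calls of Oas2, Stat2 and Bst2 in tumor, Dtx3l in anemia and Sp100, Stat2, Dhx58 and Oasl1 in neonates passed under neither scaling.

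**Figure D3:**
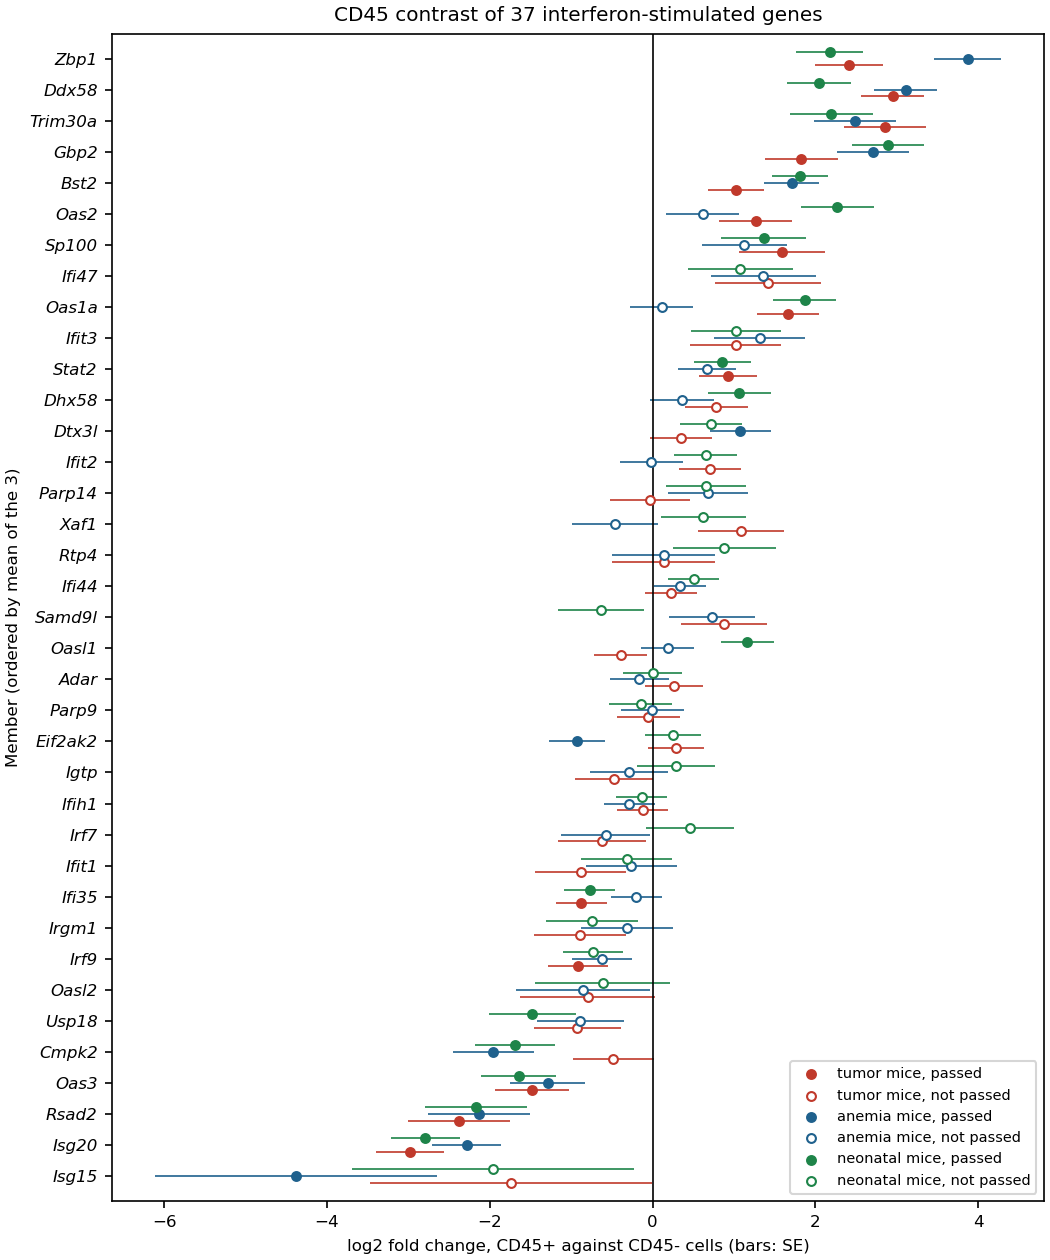
Difference between CD45+ and CD45- cells for 37 interferon-stimulated genes (log2(value + 1), points, with the standard error as bars) in tumor-bearing, anemia and neonatal mice, filled where the adjusted p was under 0.05. Zbp1, Ddx58, Trim30a, Gbp2 and Bst2 are filled on the right in all 3 statuses, and Isg20, Rsad2 and Oas3 on the left.

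Whether the CD45 contrast itself differed between statuses was tested as an interaction, and no member passed in any of the 3 tests by limma. All genes passed at 2.19% for tumor against anemia, 1.08% for tumor against neonates and 6.92% for anemia against neonates. At an unadjusted p under 0.05 there were 4, 1 and 5 members. The share of all genes at that unadjusted threshold was not counted, so these counts have nothing to be set against. Without the tumor libraries numbered 3, Eif2ak2 and Oas1a passed upward and Zbp1 downward in tumor against anemia. In that setting 5.40% of all genes passed upward and 4.11% downward. The interaction for Zbp1 was -1.46 ± 0.59, adjusted p = 0.23 with all libraries, its contrast being wider in anemia.

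Of 68 listed genes that are not members, 46 rose, 5 fell and 17 did not pass in each of the 3 CD45 contrasts, although not all the same ones. That is 67.6% higher and 7.35% lower, against the 47.4% to 50.2% and 10.3% to 11.3% of all genes given above. With median-ratio scaling 28 rose and 12 fell in tumor, 32 and 7 in anemia and 32 and 11 in neonates, and with quantile normalization 22 and 7, 28 and 7, and 25 and 10. Irf1, a factor induced by interferon gamma, stood at 30.7, 35.9 and 57.9 in tumor CD45+ cells and 0.377, 0.872 and 0.770 in CD45- cells, and rose by 4.63, 4.40 and 3.94 in the 3 statuses. The receptor subunit Ifngr1 rose by 3.86, 3.72 and 3.47. Ifnar1 was at 15.5, 15.7 and 23.1 in tumor CD45+ cells and 15.2, 17.7 and 18 in CD45- cells, and Ifnar2 at 42.8, 38 and 37.5 and 62.8, 56.3 and 49.4, so both chains of the type I receptor were read in both fractions. Besides Uba7 and Ube2l6, the nucleotidase Nt5c3 fell in all 3, by 2.59, 2.48 and 2.82. Of 12 listed interferon genes only Ifng was analysed. It was listed at 0 in all 3 tumor CD45- libraries and was at 0.152, 0.649 and 2.62 in tumor CD45+, 5.26, 4.99 and 3.13 in anemia CD45+ and 0.732, 0.546 and 3.24 in neonatal CD45+ libraries, where the sum of 10 T and NK cell markers was 51.9, 55.5 and 147, 303, 311 and 215, and 28.1, 26 and 77.3. The part of these cells in the levels was not tested.

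Tumor CD45+ cells were lower than anemia CD45+ cells for 10 members and higher for none. The 10 were Irgm1, Usp18, Irf7, Oasl1, Zbp1, Gbp2, Bst2, Oas3, Irf9 and Ifi35, against 4.91% of all genes lower and 5.81% higher. The median member differed by -1.04 and the median gene by -0.03, and 36 of 37 members had a negative difference. The share of all genes with a negative difference was not counted. Members that shift together in a library are not separate observations. Irf7 stood at 2.91, 6.28 and 16 in tumor CD45+ cells and 23.8, 35.1 and 19.9 in anemia CD45+ cells (-1.76 ± 0.54, adjusted p = 0.045). The Irf7 call was lost in 16 alternatives, among them a pseudocount of 0.1 and median-ratio scaling. Usp18 was at 0.353, 0.575 and 3.07 against 8.82, 9.73 and 3.83 (-1.96 ± 0.53, adjusted p = 0.024), and Irf9 at 6.75, 9.13 and 17.3 against 27.7, 28.8 and 26.5 (-1.34 ± 0.37, adjusted p = 0.025). For these 3 genes, picked from those that passed, every tumor library was below every anemia library. Irgm1, which guards against vacuolar pathogens, was at 0.7004, 1.14 and 2.42 against 4.89, 10.1 and 13.6 (-2.09 ± 0.57, adjusted p = 0.023). Oasl1 was at 0.734, 1.62 and 1.78 against 4.98, 4.80 and 8.98 (-1.59 ± 0.32, adjusted p = 0.0038) and was the one member called in every alternative run. The differences of Zbp1, Gbp2, Bst2, Oas3 and Ifi35 lay between -1.58 and -1.11. The Oas3 call was lost in 17 alternatives.

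The count turned on single libraries. Without tumor CD45+ library 3 it was 19, all lower, and without the tumor libraries numbered 3 of each group 22, which included all 10. In the latter setting 11.3% of all genes were lower and 9.46% higher. For tumor CD45+ library 3 left out alone, the share of all genes is not given here. These libraries held the highest tumor levels of most members, so leaving them out lowers the tumor means. Without tumor CD45+ library 1 or 2 the count was 1, Oasl1 both times. Without anemia CD45+ library 1 or 2 the count was 3 and 2. A pseudocount of 0.1 left 6. Among the 12 added without the tumor libraries numbered 3 were Parp14, at 4.75, 6.70 and 24.1 in tumor and 28.5, 31.9 and 28.1 in anemia CD45+ cells, and Xaf1, at 1.06, 1.95 and 6.53 and 9.93, 10.4 and 6.74. B cell markers moved with this comparison, at 126, 162 and 529 in tumor and 739, 902 and 783 in anemia CD45+ libraries, as did T and NK cell markers (sums above) and, in the other direction, neutrophil markers, at 27884, 29034 and 10995 against 816, 459 and 2659. Their part in the member levels was not tested. Of the 68 other pathway genes 10 fell, among them Ifng (-1.50), and 1 rose, Ifitm1 (4.15), a membrane protein that hinders virus entry.

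Against neonatal CD45+ cells, tumor CD45+ cells were lower for 4 members and higher for none, where 4.41% of all genes were lower and 2.2% higher. Bst2 was at 2.40, 2.60 and 6.29 in tumor and 18.4, 13.8 and 25.8 in neonatal cells (-2.14 ± 0.34, adjusted p = 6.4e-04), and Oasl1 at 0.734, 1.62 and 1.78 and 6.22, 8.39 and 9.39 (-1.93 ± 0.32, adjusted p = 9.2e-04). Both were separate between the groups and passed in every alternative run. Irf7 was at 2.91, 6.28 and 16 against 43.6, 27.3 and 31.6 (-2.14, adjusted p = 0.022) and Gbp2 at 1.15, 2.61 and 10.6 against 16.6, 13 and 20.4 (-1.96, adjusted p = 0.011). Without tumor CD45+ library 1 or 2 these last 2 were lost, leaving 2 members. Without the tumor libraries numbered 3 the count was 7, with Ifit3, Dhx58 and Xaf1 added. There 6.81% of all genes were lower and 3.22% higher. The monocyte and macrophage sum was 177, 253 and 577 in tumor and 1280.0, 657 and 1012 in neonatal CD45+ libraries, and its part in the result was not tested. This comparison and the one with anemia share the tumor libraries.

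Anemia CD45+ cells were higher than neonatal CD45+ cells for 5 members and lower for none, against 9.08% of all genes higher and 11.3% lower. Sp100 was at 179.7, 178 and 146 in anemia and 38.1, 27.7 and 67.6 in neonatal cells (1.98 ± 0.52, adjusted p = 0.012). Zbp1 was at 15.8, 17.4 and 16.1 against 8.72, 3.14 and 8.79 (1.25 ± 0.41, adjusted p = 0.042), Irf9 at 27.7, 28.8 and 26.5 against 10.5, 10.3 and 15.4 (1.15 ± 0.37, adjusted p = 0.035), Adar at 35.4, 40.4 and 29.2 against 14.7, 14.9 and 19 (1.06 ± 0.36, adjusted p = 0.044) and Ifi35 at 20.5, 19.7 and 13.4 against 8.93, 7.40 and 9.29 (0.97 ± 0.31, adjusted p = 0.036). The libraries of the 2 groups did not overlap for any of the 5. Members that pass with 3 libraries a group tend to be separate, so this adds no support. Markers of white blood cells moved with this comparison. The B cell sum was 739, 902 and 783 in anemia and 137, 97.4 and 330 in neonatal CD45+ libraries, the neutrophil sum 816, 459 and 2659 against 11738, 9980 and 9327, the T and NK cell sum 303, 311 and 215 against 28.1, 26 and 77.3, and the monocyte and macrophage sum 162, 161 and 342 against 1280.0, 657 and 1012. Their part in the result was not tested. The count fell to 0 without neonatal CD45+ library 2, to 2 without neonatal CD45+ library 1, to 1 without anemia CD45+ library 1 or 2, and to 3 without tumor CD45- library 2, without anemia CD45- library 1 or with a pseudocount of 0.1, and it rose to 9 with quantile normalization.

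**Figure D4:**
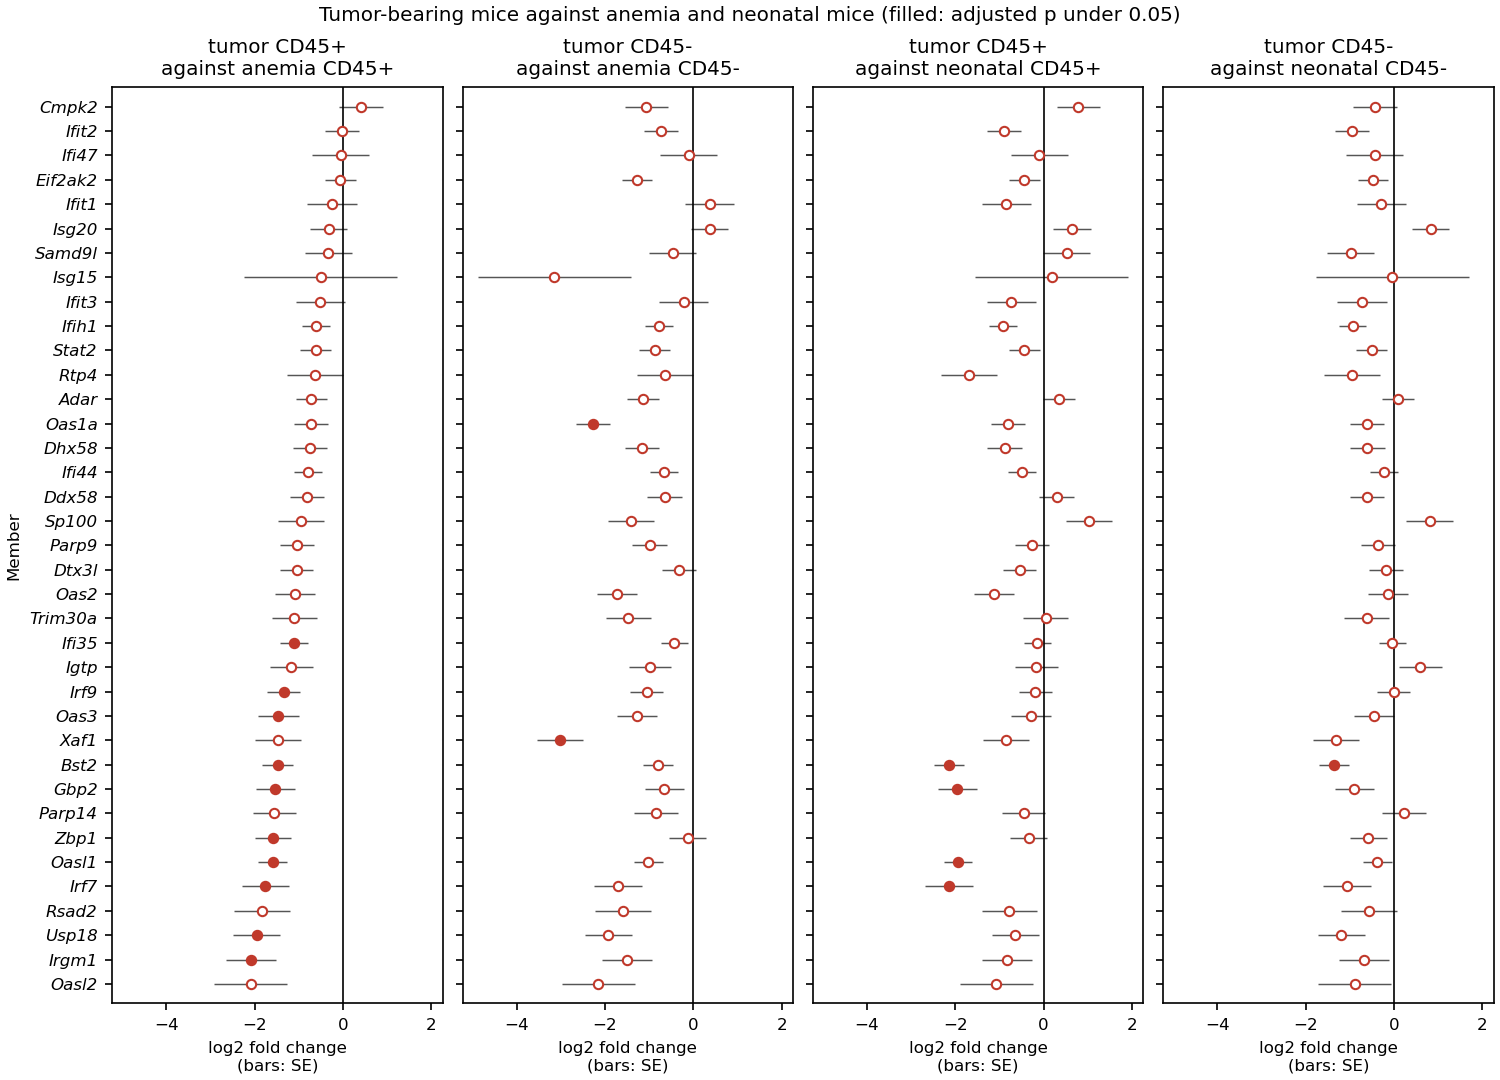
Difference of tumor-bearing mice from anemia and from neonatal mice in CD45+ and CD45- cells for 37 interferon-stimulated genes (log2(value + 1), points, with the standard error as bars), filled where the adjusted p was under 0.05. In tumor against anemia CD45+ cells 36 of 37 points lie below 0 and 10 are filled. The share of all genes below 0 was not counted.

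In CD45- cells the tumor libraries were also on the low side of anemia, with 35 of 37 differences negative and a median of -0.99 (median gene -0.06). The share of all genes with a negative difference was not counted here either. Only 2 members passed, both lower, where 0.0357% of all genes were lower and 0.116% higher. Xaf1, which promotes cell death, was at 0.193, 0.0392 and 2.85 in tumor and 17.1, 19.4 and 5.84 in anemia CD45- cells (-3.01 ± 0.52, adjusted p = 0.02). Oas1a, with the doubt about Oas1g given above, was at 0.0922, 0.128 and 1.51 against 4.63, 12.2 and 3.67 (-2.27 ± 0.39, adjusted p = 0.02). For both genes all tumor libraries were below all anemia libraries. No member was called without tumor CD45- library 1 or 2 or without anemia CD45- library 1 or 2. Without tumor CD45- library 3 there were 6, all lower (Xaf1, Oas1a, Eif2ak2, Irf9, Usp18 and Dhx58). The share of all genes in that setting is not given here. Without the tumor libraries numbered 3 of each group, 11 were lower, Xaf1 and Oas1a included. There 0.694% of all genes were lower and 0.540% higher. Eif2ak2 was at 9.24, 7.90 and 28.5 in tumor and 31.3, 40.4 and 27.4 in anemia CD45- cells, and Irf7 at 8.09, 6.93 and 23.7 and 44.6, 71.9 and 17.8, ranges that overlapped through tumor library 3. Erythroid sums were 6626, 6186 and 5772 in tumor and 5798, 5266 and 3162 in anemia CD45- cells. Neutrophil sums were 370.1, 304 and 31.9 against 14, 11 and 8.78. B cell sums were 1.92, 1.44 and 2.91 against 8.71, 11 and 1.88. Monocyte and macrophage sums were 17, 20.2 and 33.5 against 28.5, 39.5 and 21.4. The part of these cells in the member levels was not tested.

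Bst2 was the one member that differed between tumor and neonatal CD45- cells, at 0.639, 0.828 and 2.53 against 4.61, 4.66 and 4.64 (-1.36 ± 0.34, adjusted p = 0.041). Of all genes 2.14% were lower and 0.402% higher. The call was lost in 10 of the alternatives, among them leaving out tumor CD45- library 1 or 2, anemia CD45+ library 2 or anemia CD45- library 1 or 2, and quantile normalization. It was joined by Eif2ak2 and Xaf1 without the tumor libraries numbered 3, where 2.66% of all genes were lower and 0.387% higher. Anemia CD45- cells were higher than neonatal CD45- cells for 2 members, Sp100 (78.2, 127 and 44.2 against 12.4, 10.8 and 27.6, 2.22 ± 0.52, adjusted p = 0.023) and Oas1a (4.63, 12.2 and 3.67 against 1.46, 1.30 and 0.949, 1.66 ± 0.39, adjusted p = 0.021), where 0.938% of all genes were higher and 3.4% lower. The neutrophil sum was 14, 11 and 8.78 in anemia and 211, 158 and 120.0 in neonatal CD45- libraries and the monocyte and macrophage sum 28.5, 39.5 and 21.4 against 117, 63.9 and 63.8, and their part in the result was not tested. None was called without anemia CD45- library 2 or without neonatal CD45- library 1 or 2, and 1 without anemia CD45- library 1. The count was 4, 5, 6 and 4 without tumor CD45+ library 3, tumor CD45- library 3, anemia CD45- library 3 and neonatal CD45- library 3. Shares of all genes in these settings are not given here.

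MDSC of the tumor-bearing mice were compared in a fit of the 9 tumor libraries, in which 33 members were tested. Ifi44 and the Ifit genes were too low there. Tumor CD45+ cells differed from MDSC in 1 member. Isg20 was at 18.7, 29.4 and 30.8 in CD45+ cells and 4.46, 4.24 and 3.31 in MDSC (2.42 ± 0.24, adjusted p = 8.4e-04), where 5.42% of 10251 genes were higher and 0.995% lower. With the replicate number as a block Rsad2 passed too (1.80, adjusted p = 0.0081), making 2, at 3.49, 7.92 and 21.7 against 1.10, 0.563 and 5.59. Without the tumor libraries numbered 3 the count was 1, again Isg20, where 2.16% of all genes were higher and 0.505% lower. With all tumor libraries the median member differed by 0.15 and the median gene by 0.16. The erythroid sum was 499.6, 996 and 625 in tumor CD45+ libraries and 106, 60.9 and 51.5 in MDSC, and its part in the Isg20 level was not tested.

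Tumor CD45- cells differed from MDSC in 11 members, 3 higher and 8 lower, where 14.3% of all genes were higher and 42.1% lower. Isg20 rose by 5.40 ± 0.24, Rsad2 by 4.18 ± 0.77 and Ifi35 by 1.16 ± 0.33 (adjusted p = 3.7e-08, 9.9e-04 and 0.012). Trim30a, Ddx58, Oas2, Zbp1, Oas1a, Sp100, Samd9l and Gbp2 fell, by 3.20 to 1.35. The Gbp2 call was lost in 9 alternatives, both scalings among them, that of Samd9l under both scalings, that of Sp100 with median-ratio scaling and without any one of 3 libraries, and that of Oas2 after quantile normalization. Ddx58 was at 8.18, 11 and 23.8 in MDSC and Zbp1 at 2.09, 3.47 and 6.84, and in the comparison of tumor CD45+ cells with MDSC neither passed (0.12 ± 0.44 and 0.28 ± 0.48). The count moved to 17, 4 higher and 13 lower, without the tumor libraries numbered 3, and included all 11. In that setting 29 members were tested, and 14.7% of all genes were higher and 55.2% lower. Scaling moved the split to 9 higher and 5 lower by median ratios (all genes 28.1% and 30.7%) and to 8 and 5 by quantile normalization (all genes 28.3% and 24.3%), which bring the median gene from -0.56 to -0.03 and 0.13. Uba7 and Ube2l6 were higher in CD45- cells than in MDSC as well, by 2.75 and 4.78.

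Ranked by group mean, 15 of the 37 members were highest in anemia CD45- cells, 8 each in anemia CD45+ and neonatal CD45+ cells, 2 each in neonatal CD45- cells and MDSC, and 1 each in tumor CD45+ cells (Ifi47) and tumor CD45- cells (Isg20). The lowest mean was in tumor CD45- cells for 16 members and in MDSC for 14. The anemia groups were thus at the top for 23 members and the tumor groups, MDSC included, for 4. All genes were not ranked in this way, so these counts have no share to be set against. Isg15 shows how wide the spread can be under such a rank, at 193, 249 and 78.4 in anemia CD45- cells and 46.7, 26.5 and 3.58 in neonatal CD45- cells.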

How the data were processed

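RNA of the 21 libraries was total RNA prepared with a TruSeq kit, according to the labels' protocols. Their extraction text speaks of retinas while the tissue label is spleen. Bowtie 0.12.2 and build mm8 are named in the submitters' processing notes. The authors deposited 1 log2 expression value per gene and library, and the quantification tool, annotation, offset and scale are not given in the sources used here. No counting interval could be given, since read depth is unknown. The 23668 blank cells (7.90%) were read as a level of 0. Where a symbol occurred again (8 cases), the row of highest mean was kept, and 20 symbols that had become dates were not named.

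Tests were run on log2(value + 1). To be tested, a gene had to reach a value of 1 in 3 or more libraries of the fit. The model in limma 3.58.1 (R 4.3.3, statmod 1.5.0), had a mean per group, with the trend and robust options and two-sided tests. The fit of the 18 Ter119+CD71+ libraries tested 11192 genes and the fit of the 9 tumor libraries 10251. Benjamini-Hochberg adjustment covered every gene tested in a comparison, with a threshold of 0.05. All 37 members passed the filter of the first fit and 33 that of the second. The fit was tested on simulated data.

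Full test values were given for up to 8 members with the largest positive and 8 with the largest negative difference that passed in a comparison, and levels for members by role. The members and lists were chosen with earlier results of these data known. Some listed pathway genes are counted and not reported by name here. Overlap of libraries is given as a description, since members that pass the test tend to be separate. Alternatives were a pseudocount of 0.1, no filter, median-ratio scaling, quantile normalization, the replicate number as a block and each library left out, and, chosen after the data were seen, the tumor libraries numbered 3 left out together.

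Replicate numbers come from the labels, which do not say what a number shares. Deviations from the group means of same-numbered libraries correlated at over 0.1 for every pair in the 3 CD45 contrasts. They ran from 0.112 to 0.271 in tumor, 0.109 to 0.226 in anemia and 0.215 to 0.362 in neonatal mice. The same held in tumor against neonatal CD45+ cells (0.106 to 0.384) and in tumor CD45+ cells against MDSC (0.167 to 0.322). The numbers were taken to pair libraries in these comparisons and not in the others. That pairing is an assumption. Tumor CD45+ libraries 1 and 2 correlated at 0.112 and 0.124 with their own number in CD45- cells, and at up to 0.138 with another. Tumor CD45+ library 1 gave 0.106 with neonatal CD45+ library 1 and up to 0.263 with another number. The main tests used no block. Promoters are those of RefSeq on GRCm38.p6, and shared sequence was found in GENCODE vM21 transcripts with blastn 2.17.0 at 97% identity over at least 100 bases.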

Additional observations from a re-analysis of the deposited data

How the results depend on the processing

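Counts of members called moved by over 1.5 times as follows. With a pseudocount of 0.1 they were 6 in place of 10 for tumor against anemia CD45+ cells, 3 in place of 5 for anemia against neonatal CD45+ cells, and 4 in place of 2 for anemia against neonatal CD45- cells. Quantile normalization gave 9 for anemia against neonatal CD45+ cells and 0 for tumor against neonatal CD45- cells, and median-ratio scaling gave 4 for anemia against neonatal CD45- cells. The replicate number as a block gave 2 in place of 1 for tumor CD45+ cells against MDSC, where numbers were taken to pair. It gave 1 in place of 2 for tumor against anemia CD45- cells, where they were not. Among comparisons with numbers taken as paired the block changed, besides Rsad2 against MDSC, the calls of Isg15 in anemia and Stat2 in neonates. In tumor against anemia CD45+ cells, not taken as paired, the block lost Oas3 and Irf7 as well. It called another member there, giving 9 lower in place of 10. In tumor CD45- cells against MDSC, also not taken as paired, it gave 6 higher and 9 lower in place of 3 and 8. Without the tumor libraries numbered 3, counts were 22 for tumor against anemia CD45+ cells, 7 for tumor against neonatal CD45+ cells, 11 for tumor against anemia CD45- cells, 3 for tumor against neonatal CD45- cells, 17 for tumor CD45- cells against MDSC and 3 for the interaction of tumor and anemia. The cause of these moves was not tested. Shares of all genes called without the tumor libraries numbered 3 are given above.

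Leaving out each library in turn gave 10 to 16 members for the CD45 contrast in tumor, 9 to 14 in anemia and 12 to 18 in neonatal mice. It gave 1 to 19 for tumor against anemia CD45+ cells, 2 to 5 for tumor against neonatal CD45+ cells and 0 to 6 for anemia against neonatal CD45+ cells. For CD45- cells it gave 0 to 6 for tumor against anemia, 0 to 2 for tumor against neonatal and 0 to 6 for anemia against neonatal mice. Against MDSC it gave 1 for CD45+ cells and 9 to 14 for CD45- cells. The interactions gave 0 to 2 (tumor and anemia), 0 to 1 (tumor and neonatal) and 0 to 2 (anemia and neonatal). A group left with 2 libraries is assumed to vary like the others. Shares of all genes called with a single library left out are not reported here.

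Of 79 calls of single members, 65 kept direction and side of the threshold under median-ratio scaling, 62 under quantile normalization, 71 with a pseudocount of 0.1, 76 without the filter and 74 with the block, and 39 did so whichever library was left out. Quantile normalization turned 2 calls of tumor CD45+ against CD45- cells, Stat2 to -0.10 and Bst2 to -0.25, neither of which passed there.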
